A study of Homo sapiens with 6 samples.

Results

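The comparison described here is between 2 of 6 RNA-seq libraries of MDA-MB-231 cells, 1 from cells kept for 48 h in PCI-24781 at 100 nM and 1 from cells kept as long in its solvent DMSO. MDA-MB-231 is an established human triple-negative breast cancer cell line with mesenchymal features, and PCI-24781 is an inhibitor of histone deacetylases (HDACs). The other 4 libraries were a 48 h culture at 200 nM and 24 h cultures with DMSO or with either dose, all grown attached in the same serum-containing medium, and the experiment asked which genes respond to low doses of the inhibitor. Each condition had 1 library, so the spread between replicates is unknown and no difference was tested. All 16623 genes of the series were examined, and the 11514 that reached an FPKM of 1 in the DMSO or the 100 nM library at 48 h were compared. FPKM counts fragments per kilobase of transcript relative to library size, and every change is given as the difference of log2(FPKM + 1), 100 nM minus DMSO, a scale that understates the change of weakly expressed genes.

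HDACs remove acetyl groups from the lysines of histone tails and of other proteins. Some of their zinc-dependent members act in large corepressor complexes that keep chromatin compact. An inhibitor leaves histones more acetylated, after which some genes are transcribed more and others less. Genes that are silent or weak in a cancer cell, including epithelial, neuronal and secreted-factor genes, are often among those that go up, and the cell cycle inhibitor gene CDKN1A is the textbook example.

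Before the results, the relation among the 6 libraries has to be given, because the 48 h pair did not stand in the order of its labels. By the number of genes with a difference of at least 2-fold, the DMSO 48 h library was nearer to the library labelled 200 nM 48 h, with 31 genes, and to that labelled 100 nM 24 h, with 66 genes, than to DMSO 24 h, with 301 genes. The library labelled 100 nM 48 h was nearest to DMSO 48 h, from which it differed at 54 genes. It differed from 200 nM 48 h at 234 genes, from 100 nM 24 h at 210 genes and from DMSO 24 h at 213 genes. An exchange of the 100 nM and DMSO libraries at 48 h and an effect of 100 nM that turned between 24 h and 48 h cannot be told apart from these 6 libraries, with 1 per condition. The labels are used as given, and every direction below is that of the library labelled 100 nM 48 h against the library labelled DMSO 48 h. An exchange would reverse each of them.

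The depth inferred from the steps between low values was 15600000 to 17900000 fragments per library. The DMSO library of the 48 h pair had 17500000 and the 100 nM library 17800000. At this depth 3 fragments on a transcript of 2 kb gave an FPKM of 0.0838 to 0.0962, and 1391 genes in the DMSO 48 h library and 1614 in the 100 nM 48 h library were listed at 0. Markers of MDA-MB-231 were present in both. Vimentin (VIM), the intermediate filament of mesenchymal cells, was at 2030.0 in DMSO and 2053 at 100 nM, the receptor AXL was at 377 and 356, CD44 at 164 and 154 and EGFR at 35.1 and 35.9, while SPARC was low at 1.54 and 0.81. The oestrogen receptor gene ESR1 was listed at 0 in both, the progesterone receptor gene PGR was at 0.01 and 0.02 and E-cadherin (CDH1) at 0.24 and 0.28. The other genes listed as low in this line were above an FPKM of 1, with ERBB2 at 17.1 and 20.7 and the epithelial surface protein EPCAM at 2.99 and 3.56. Of 14 luminal breast epithelial markers, 8 reached an FPKM of 1 in DMSO and 9 at 100 nM, with a summed FPKM of 273.8 and 280.1. The largest were the keratins KRT18 (91.1 and 91.3) and KRT8 (84.4 and 99.3). Of 10 fibroblast markers, 2 reached an FPKM of 1 in either library and the summed FPKM of all 10 was 4.19 in DMSO and 3.02 at 100 nM, with THY1 listed at 0 in both.

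Few genes separated the 2 libraries. Of the 11514 genes, 47 (0.408%) were at least 2-fold lower and 7 (0.0608%) were at least 2-fold higher in the 100 nM library. Small differences were nearly balanced, with 6028 genes (52.4%) lower and 5435 (47.2%) higher by any amount and a median change of -0.01. These shares are the background for the counts of lower or higher members in each list below. The libraries are from bulk cultures, in which fewer cells that express a gene and less of its RNA per cell cannot be told apart. Among all genes compared, 42.8% changed by less than 0.1. At a threshold of 1.5-fold, 203 genes were lower and 58 higher. The genes nearest to the 2-fold limit were LMCD1 (-1.01) inside it and PLAAT1 (-0.98) and TLE2 (-0.96) outside it on the lower side, and ALDH3A1 (0.94) outside it on the higher side.

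**Figure D1:**
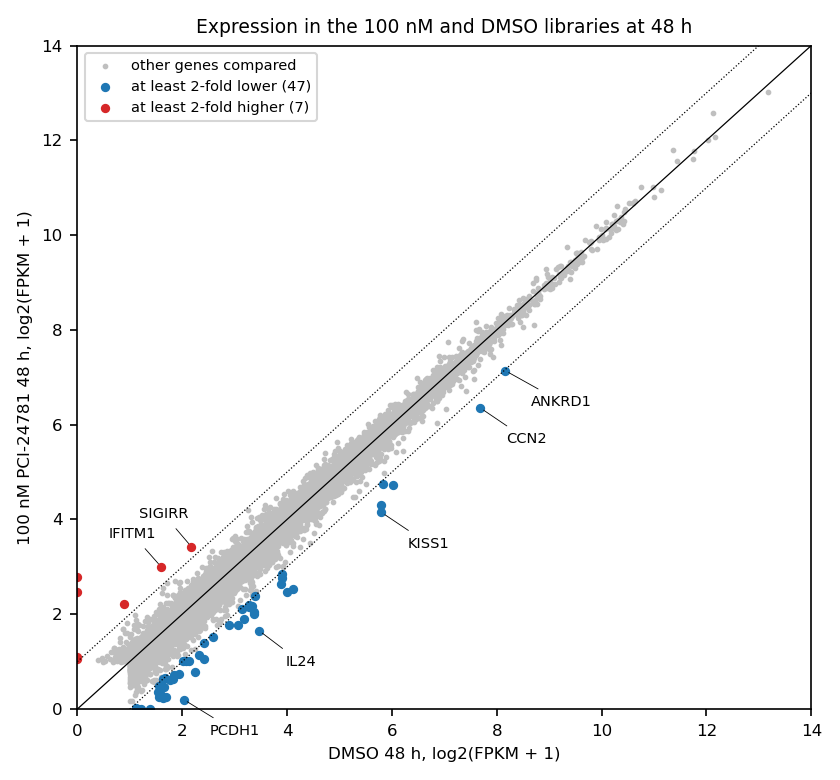
Expression of each of the 11514 genes compared, as log2(FPKM + 1), in the DMSO 48 h library (x axis) and the 100 nM 48 h library (y axis), with 1 point per gene. The solid line marks equal values and the dotted lines a 2-fold difference. Of the coloured points 47 lie below and 7 above the dotted lines, and the lower ones reach higher expression, up to ANKRD1 with an FPKM of 285 in DMSO.

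The 47 lower genes are described by the role of their products. The promoters of 5 of them are printed here because these genes had the largest difference among the lower genes (PCDH1), or the largest differences among genes at an FPKM of 10 or more on both sides (KISS1, CDA, CCN2 and CXCL8). Each is the 250 bases before the transcription start in RefSeq, build GRCh38.p14, written 5′ to 3′ on the strand of the gene. Capitals mark letters that match a motif on either strand, of the AP-1 motif TGANTCA, the TEAD motif GGAATG, the TATA box TATAAA and the GC box GGGCGG. PCDH1 is on the minus strand at chr5:141869628-141869877, KISS1 on the minus strand at chr1:204196492-204196741, CDA on the plus strand at chr1:20588847-20589096, CCN2 on the minus strand at chr6:131951373-131951622 and CXCL8 on the plus strand at chr4:73740319-73740568.
PCDH1: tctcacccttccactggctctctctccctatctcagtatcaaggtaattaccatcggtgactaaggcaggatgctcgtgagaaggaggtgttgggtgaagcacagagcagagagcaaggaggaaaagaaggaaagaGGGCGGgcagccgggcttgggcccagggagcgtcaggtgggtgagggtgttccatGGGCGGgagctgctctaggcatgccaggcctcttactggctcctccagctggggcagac
KISS1: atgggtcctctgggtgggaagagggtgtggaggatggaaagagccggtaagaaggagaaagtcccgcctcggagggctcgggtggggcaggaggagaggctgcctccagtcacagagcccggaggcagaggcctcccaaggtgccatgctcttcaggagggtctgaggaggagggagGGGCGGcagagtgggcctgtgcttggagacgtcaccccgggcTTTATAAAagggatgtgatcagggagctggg
CDA: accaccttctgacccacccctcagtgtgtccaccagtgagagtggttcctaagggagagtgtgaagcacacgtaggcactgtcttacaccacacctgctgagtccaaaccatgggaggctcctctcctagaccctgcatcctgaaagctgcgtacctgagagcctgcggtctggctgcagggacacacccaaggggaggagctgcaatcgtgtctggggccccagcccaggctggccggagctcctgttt
CCN2: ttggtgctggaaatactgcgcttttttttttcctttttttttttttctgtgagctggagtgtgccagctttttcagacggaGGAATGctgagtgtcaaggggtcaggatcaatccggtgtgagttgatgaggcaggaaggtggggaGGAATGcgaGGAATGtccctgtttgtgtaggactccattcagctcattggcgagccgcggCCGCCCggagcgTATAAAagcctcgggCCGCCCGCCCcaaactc
CXCL8: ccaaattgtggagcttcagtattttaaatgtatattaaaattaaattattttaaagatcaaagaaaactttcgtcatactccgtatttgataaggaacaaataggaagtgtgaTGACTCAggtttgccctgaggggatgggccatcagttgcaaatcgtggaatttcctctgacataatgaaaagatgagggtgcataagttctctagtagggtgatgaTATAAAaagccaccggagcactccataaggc
In CCN2 there were 3 TEAD matches, from 169, 104 and 95 bases before the start, a TATA match from 32 bases before it and 3 GC box matches. CXCL8 held an AP-1 match from 137 and a TATA match from 31 bases before the start. KISS1 held 2 overlapping TATA matches, one on each strand, and a GC box, PCDH1 held 2 GC boxes, and the CDA window held none of the 4 motifs.

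A RefSeq promoter was found for 33 of the 47 lower genes and for 9515 of all genes compared. The AP-1 letters were in 6 of the 33 windows (18.2%) against 3.56% of all windows, and the TATA letters in 8 (24.2%) against 4.93%. The TEAD letters were in 5 (15.2%) against 9.23%, and the GC box letters in 15 (45.5%) against 69.1%. The median GC content of the windows was 54.8% for the lower genes and 65.2% for all, with a median of 7 and 21 CG pairs. These are descriptions of letters in short windows, not binding sites.

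PCDH1, which encodes protocadherin 1, a calcium-dependent adhesion protein of epithelial cells, had the largest difference among the lower genes. Its FPKM was 3.08 in DMSO and 0.15 at 100 nM at 48 h (log2 change -1.83), which corresponds to about 232 and 12 fragments. In the other libraries it was 0.08 with DMSO, 3.21 with 100 nM and 10.2 with 200 nM at 24 h, and 12.5 with 200 nM at 48 h. PCDH1 was therefore near the floor in DMSO 24 h and 100 nM 48 h alone. Of the 3 non-clustered protocadherins compared, PCDH20 had 1.97 and 0.76 (-0.76) and PCDH7 3.70 and 3.53 (-0.05). CLDN1, the tight junction protein claudin 1, was at 16.4 in DMSO and 4.81 at 100 nM (-1.58), against 4.60, 19.2 and 24.7 with DMSO, 100 nM and 200 nM at 24 h and 31.01 with 200 nM at 48 h. Of 13 tight junction genes 9 were lower, including the cytoskeletal linkers CGN (2.04 and 0.59, -0.94) and TJP3 (1.23 and 0.39, -0.68), with a list median of -0.07. Other lower adhesion genes were the neuronal contactin CNTN1 (-1.01) and the immunoglobulin superfamily member IGSF1 (8.67 and 3.55, -1.09).

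Inflammatory mediators formed the list with the most genes past the limit. Of 19 cytokine and prostaglandin genes compared, 16 were lower and 3 higher, 4 of the 16 by at least 2-fold, and the list median was -0.30, where 52.4% of all genes were lower and 0.408% by at least 2-fold. IL24, a cytokine of the interleukin 10 family, was at 10.1 in DMSO and 2.15 at 100 nM (-1.81). CXCL8, the neutrophil chemoattractant interleukin 8, was at 64.1 and 25.4 (-1.30). The 24 h values of CXCL8 were 11.6 with DMSO, 31.8 with 100 nM and 28.7 with 200 nM, and its 200 nM 48 h value was 67.1. Its level at 100 nM 48 h thus lay between DMSO 24 h and the other 4 libraries. IL1A, an interleukin 1 released by damaged epithelial cells, was at 2.82 and 0.67 (-1.19), and PTGS2, the inducible cyclooxygenase, was at 3.40 and 1.01 (-1.13). Below the limit, IL1B was at 38.2 and 21.3 (-0.81), IL18 at 73.5 and 42.5 (-0.78) and IL6 at 16.4 and 10.4 (-0.60). Further immune genes past the limit were SLAMF7, a lymphocyte surface receptor (9.40 and 3.15, -1.32), TNFRSF11B, the soluble decoy receptor osteoprotegerin (-1.16), and OAS1, an interferon-induced sensor of double-stranded RNA (2.55 and 0.55, -1.20).

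Secreted peptides, growth factors and their receptors were a further part of the 47. KISS1 encodes kisspeptin, the ligand of a G protein-coupled receptor first described as a metastasis suppressor, and it was at 54.8 in DMSO and 16.8 at 100 nM (-1.65). The other libraries gave KISS1 values of 20.8 with DMSO, 31.6 with 100 nM and 17.3 with 200 nM at 24 h and 57.99 with 200 nM at 48 h, so that 100 nM 48 h was the lowest of the 6 by a small margin. AREG, the EGFR ligand amphiregulin, was at 8.66 and 3.42 (-1.13) and its relative EREG at 1.53 and 0.69 (-0.58). FGF1, a fibroblast growth factor, was at 9.06 and 3.50 (-1.16), and IGFBP3, which binds insulin-like growth factors in the extracellular space, at 56.1 and 25.8 (-1.09). F2RL2, a protease-activated receptor of the thrombin family, was at 8.01 and 2.71 (-1.28), DPP4, a peptidase of the cell surface, at 1.92 and 0.28 (-1.19), and FOLR1, a folate receptor, at 5 and 1.88 (-1.06).

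Matrix proteins and the proteases that act on them were lower in part. TNC, the matrix protein tenascin C, was at 4.36 in DMSO and 1.09 at 100 nM (-1.36), EFEMP1, a fibulin, at 13.8 and 5.26 (-1.24), and MMP1, the interstitial collagenase, at 14.1 and 5.82 (-1.14). PRSS3, a trypsinogen, was at 7.41 and 2.43 (-1.29). Over the 27 collagens, laminins and matrix proteins compared, 17 were lower and 10 higher, with a median of -0.11, where 52.4% of all genes were lower. COL6A1 was among the higher ones (8.43 and 13.5, 0.62). In the plasminogen activator system 7 of 8 genes were lower, with a median of -0.27 and none past 2-fold. Among the 7 is S100A10, which was nearly equal (-0.003). PLAU, the urokinase activator, was at 94.1 and 66.7 (-0.49). Of 13 integrins 10 were lower, with a median of -0.20, from ITGB3 (5.34 and 2.41, -0.90) to ITGB4 in the other direction (22.3 and 34.4, 0.60). Among 10 matrix metalloproteinases and their inhibitors 7 were lower, with a median of -0.08.

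The 2 most abundant of the 47 lower genes, CCN2 and ANKRD1, are targets of the transcriptional coactivators YAP and TAZ. CCN2, the matricellular protein connective tissue growth factor, was at 205 in DMSO and 80.9 at 100 nM (-1.33), beside 88.8, 240.3 and 353 with DMSO, 100 nM and 200 nM at 24 h and 295 with 200 nM at 48 h. ANKRD1, a nuclear ankyrin repeat protein, was at 285 and 140.2 (-1.02), beside 191, 482 and 816 at 24 h and 528 with 200 nM at 48 h. Both were lowest of the 6 libraries at 100 nM 48 h, with DMSO 24 h next. The list of 18 genes holds targets and also the pathway's own genes YAP1, WWTR1 and TEAD1 to TEAD4. In it 12 were lower and 6 higher, with a median of -0.07, where 52.4% of all genes were lower. The 6 higher genes were the target AJUBA (0.004) and the pathway genes YAP1 (0.009), TEAD2 (0.065), TEAD4 (0.078), WWTR1 (0.118) and TEAD3 (0.126). CCN1, the paralogue of CCN2, was at 420.0 and 274 (-0.61) and the tissue factor gene F3 at 169 and 104 (-0.70).

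Neuronal and neuroendocrine genes, cytoskeletal proteins and a few enzymes made up most of the rest. SCG2, the granule protein secretogranin II, was at 2.14 in DMSO and 0.38 at 100 nM (-1.19), and MAP2, a microtubule-associated protein of dendrites, at 1.94 and 0.41 (-1.06). Of 11 neuronal and neuroendocrine genes compared 7 were lower and 4 higher, with a median of -0.52, and TUBB3 was higher at 64.8 and 83.5 (0.36). The median of this list rests on weak genes, since over members that reached an FPKM of 1 in both libraries it was -0.045. Further lower genes of the nervous system were PCSK1N, which inhibits a prohormone convertase (-1.12), the adhesion receptor ADGRB2 (-1.13), APLP1, a relative of the amyloid precursor (13.97 and 6.24, -1.05), the secreted NELL2 (-1.03) and the calcium sensor VSNL1 (-1.01). KRT15, a basal keratin, was at 3.75 and 0.71 (-1.47), and 7 of 9 keratins were lower, with a median of -0.19. The LIM protein genes CRIP2 (15.02 and 4.55, -1.53) and LMCD1 (9.53 and 4.24, -1.01), the adaptor AFAP1L2 (-1.01) and the nuclear envelope gene SUN3 (-1.18) were also past the limit. CDA, the cytidine deaminase of pyrimidine salvage, was one of the more abundant, at 54.7 and 18.9 (-1.49), while FABP4, a fatty acid carrier (-1.29), FXYD1, a regulator of the sodium pump (-1.44), and MAP3K7CL (9.33 and 2.99, -1.37) had a DMSO value below 10.

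The remaining 7 of the 47 genes share fragments with an overlapping gene or a near-identical copy, and their values are uncertain. They were the read-through genes PHOSPHO2-KLHL23 (-1.40) and ATP5MF-PTCD1 (1.60 in DMSO and listed at 0 at 100 nM), KLRK1 (2.04 and 0.22), TMEM191C (1.33 and listed at 0), the pseudogene GOLGA6L3P (1.17 and 0.02), ZNG1F (3.22 and 1.01) and the hair keratin-associated gene KRTAP2-3 (7.78 and 3.29). PTCD1, which shares exons with ATP5MF-PTCD1, went the other way, at 1.15 in DMSO and 2.94 at 100 nM. Without the genes of this kind 40 were lower and 2 higher.

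The 2 higher genes not marked as sharing fragments were IFITM1 and SIGIRR, which lie near each other at the end of the short arm of chromosome 11. Sharing of fragments with genes that are only similar was not tested. IFITM1 (chr11:313991-315272 in the coordinates of the files), an interferon-induced membrane protein that restricts virus entry, was at 2.03 in DMSO and 7.01 at 100 nM (1.40). Its other values were 1.98, 1.70 and 0.87 with DMSO, 100 nM and 200 nM at 24 h and 0.78 with 200 nM at 48 h, so 100 nM 48 h stood above all the rest. SIGIRR (chr11:405716-417397), which encodes an inhibitory receptor of the interleukin 1 receptor family, was at 3.52 and 9.74 (1.25), with 5.41, 2.08 and 1.18 at 24 h and 2.59 with 200 nM at 48 h. The highest value of SIGIRR was therefore also at 100 nM 48 h, with DMSO 24 h next. Of 26 interferon-stimulated genes 17 were higher and 9 lower, with a small median of 0.08, where 47.2% of all genes were higher. IRF7, a transcription factor of the interferon response, was at 2.28 and 4.32 (0.70), and IFI6 at 12.2 and 8.27 (-0.51).

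The other 5 higher genes overlap another gene model or have a near-identical copy. NPIPA7 was at 5.94 at 100 nM 48 h and listed at 0 in the other 5 libraries, while its near-identical copy NPIPA8 was at 11.3 in DMSO and 6.90 at 100 nM. MTPN had 4.53 in the 100 nM 48 h library, 4.66 in the 100 nM 24 h library and was listed at 0 elsewhere. TNFSF13, the lymphocyte ligand APRIL, was at 0.86 and 3.65 (1.32), while the read-through gene TNFSF12-TNFSF13 was at 1.51 and 0.76. KLRC4-KLRK1 (1.13) and SMIM11 (1.07) were listed at 0 in DMSO 48 h. How fragments were assigned between these models was not tested.

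Among genes at an FPKM of 10 or more on both sides, 3072 were lower and 3055 higher of 6143. Beyond the 6 past 2-fold already given (KISS1, CDA, CCN2, CXCL8, IGFBP3 and ANKRD1), the larger lower values included LOXL4, a lysyl oxidase that crosslinks collagen (20.6 and 10.4, -0.93), DKK1, a secreted Wnt inhibitor (56.7 and 30.5, -0.87), CREG1 (-0.81), IL1B, TINAGL1 (-0.80), IL18, GPX3, a secreted glutathione peroxidase (-0.77), and CDKN1A. The largest higher values were smaller in size. They were of ALDOC, an aldolase (10.9 and 18.8, 0.74), EPHX1, an epoxide hydrolase (30.04 and 48.8, 0.68), S100A4, a calcium-binding protein of motile cells (25.4 and 41.04, 0.67), and NQO1, a quinone reductase (133 and 212, 0.67). MCRIP1 (0.66), SEMA3B (0.65), ITGB4, HSD3B7 (0.60) and MSLN, the surface protein mesothelin (0.59), followed.

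**Figure D2:**
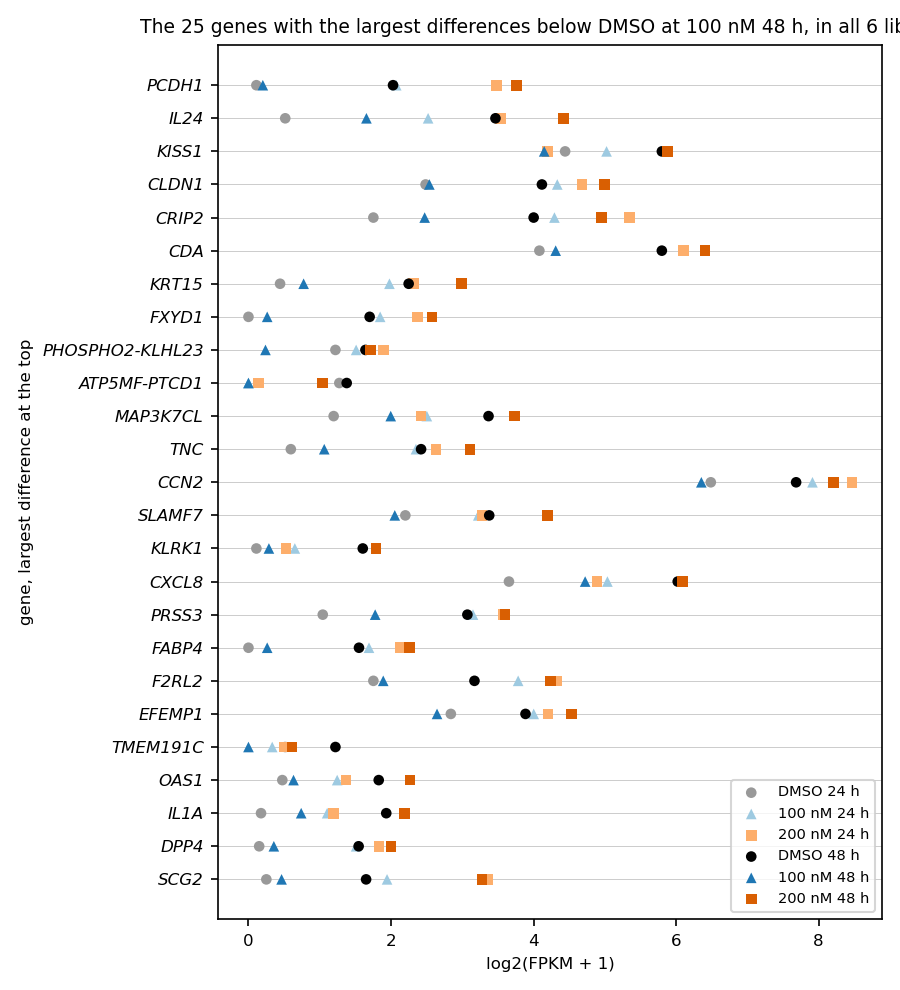
The 25 genes with the largest 2-fold differences below DMSO at 100 nM 48 h, with log2(FPKM + 1) on the x axis and 1 symbol for each of the 6 libraries in every row. The blue triangle (100 nM 48 h) lies left of the black circle (DMSO 48 h) in each row by construction, and in most rows it lies beside the grey circle (DMSO 24 h), while the black circle lies beside the pale blue triangle (100 nM 24 h).

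The 24 h pair shares no library with the 48 h pair, so the same genes were read there. At 24 h, 155 of 11475 genes (1.35%) were at least 2-fold higher with 100 nM than with DMSO, and 5922 (51.6%) were higher by any amount. Of the 47 genes lower at 48 h, 43 were compared at 24 h. At 24 h 41 of them were higher and 2 lower with 100 nM, 32 by at least 2-fold higher and 1 by at least 2-fold lower. Their median change was -1.19 at 48 h and 1.32 at 24 h. CRIP2 had the largest 24 h value, 2.37 with DMSO and 18.6 with 100 nM (2.54), and PTGS2 had a small one, 0.50 and 0.73 (0.21). Without the genes that share fragments, all 39 compared at 24 h were higher there. SIGIRR, higher at 48 h, was at 5.41 with DMSO and 2.08 with 100 nM at 24 h (-1.06), and IFITM1 changed little there (-0.14).

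**Figure D3:**
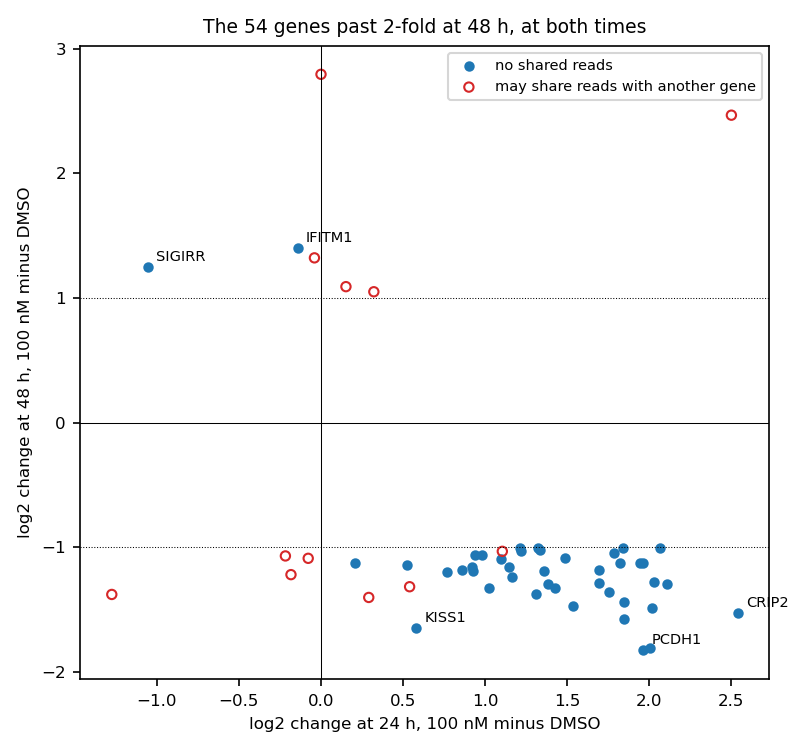
The 54 genes past 2-fold at 48 h, with the log2 change at 24 h (100 nM minus DMSO, x axis) against that at 48 h (y axis). Filled points are genes not marked as sharing fragments with another gene and open points are genes that may. The lower right area holds most of the 47 genes lower at 48 h, and the 2 filled points at the upper left are SIGIRR and IFITM1.

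Against the DMSO 24 h library, 42 of the 47 genes were within 2-fold at 100 nM 48 h, 3 were 2-fold above and 2 were 2-fold below, with a median difference of 0.23. Of all 11367 genes compared between these libraries, 184 were 2-fold above and 29 were 2-fold below, so being within 2-fold was not particular to the 47. Those of the 47 that were 2-fold above were IL24 (1.14), CXCL8 (1.07) and LMCD1 (1.08). The 200 nM 48 h library, which is read against the same DMSO 48 h library, gave a median of 0.53 for the 47 genes. It was at 8.70 for SCG2 and 12.5 for PCDH1, against 2.14 and 3.08 in DMSO. Of the 47, 24 had a DMSO FPKM below 5 and 12 had one of at least 10.

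Genes reported to respond to HDAC inhibitors were mixed in direction, and acetylation itself was not measured in these libraries. CDKN1A, which encodes the cell cycle inhibitor p21, was at 44.3 in DMSO and 25.8 at 100 nM (-0.76), and at 13.2 with DMSO, 30.6 with 100 nM and 48.8 with 200 nM at 24 h and 52.9 with 200 nM at 48 h. CLU, the secreted chaperone clusterin, was also lower, at 50.5 and 34.4 (-0.54). TXNIP, which binds thioredoxin, was higher at 161 and 217 (0.43). Of 7 reported response genes compared 4 were higher and 3 lower, with a median of 0.17.

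The HDAC genes themselves differed little. Of 11 zinc-dependent HDAC genes 8 were higher and 3 lower, with a median of 0.03 and a range from HDAC9 (8.52 and 6.09, -0.42) to HDAC10 (5.94 and 7.68, 0.32). HDAC1, HDAC2 and HDAC3, the catalytic subunits of the nuclear corepressors, changed by 0.13, -0.14 and 0.11. Among 25 corepressor subunits 20 were higher and 5 lower, with a median of 0.08, led by the chromatin remodeller CHD3 (19.8 and 29.8, 0.57). Of 14 core and linker histone genes 9 were higher, with a median of 0.18. H1-2 was at 8.96 and 15.6 (0.73) and H4C3 at 3.12 and 1.84 (-0.54), and values of replication-dependent histones depend on how RNA without a poly(A) tail was captured.

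Several housekeeping and metabolic lists had small differences in 1 direction. All 18 endoplasmic reticulum chaperones and folding genes were lower, none by 2-fold, with a median of -0.18, where 52.4% of all genes were lower. SDF2L1 was at 9.13 in DMSO and 5.44 at 100 nM (-0.65), HSPA5, the chaperone BiP, at 198 and 153 (-0.38) and HYOU1 at 56.4 and 43.9 (-0.35). In cholesterol synthesis and uptake 19 of 23 genes were lower, with a median of -0.24. SC5D, a late enzyme of the pathway, was at 13.2 and 8.54 (-0.57), HMGCS1, the synthase that precedes HMG-CoA reductase, at 14.8 and 9.99 (-0.52) and MSMO1 at 68.1 and 47.7 (-0.50), while TM7SF2 was higher at 7.02 and 10.6 (0.53). HMGCS1 and MSMO1 were lower still in the 24 h libraries, at 5.54 to 6.34 and at 22.2 to 27.9.

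Glycolysis went the other way, with 20 of 23 genes higher, none by 2-fold, and a median of 0.14, where 47.2% of all genes were higher. GAPDH was at 2617 in DMSO and 3531 at 100 nM (0.43), PKM, the last kinase of the pathway, at 944 and 1171 (0.31) and PFKL at 31.7 and 39.7 (0.32). GAPDH at 100 nM 48 h was the highest of the 6 libraries. The hypoxia target CA9, a carbonic anhydrase of the cell surface, was at 2.10 and 4.88 (0.92), and 14 of 21 hypoxia targets were higher, with a median of 0.08. The ferritin light chain gene FTL, one of the most abundant transcripts, was at 4480.0 and 6088 (0.44). Of 28 lysosome and autophagy genes 21 were higher, with a median of 0.06, among them the protease CTSD (647 and 862, 0.42), while NPC2, which carries cholesterol out of lysosomes, was lower (363 and 267, -0.44).

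Proliferation and protein synthesis genes differed by very little. Of 38 DNA replication genes 28 were lower, with a median of -0.06, and of 32 mitosis genes 23 were lower, with a median of -0.07. CDK1, the mitotic kinase, was at 82.5 and 65.2 (-0.34) and CENPF at 31.3 and 24.6 (-0.33), while the kinesin KIF20A was higher at 52.6 and 63.3 (0.26). Among 75 cytosolic ribosomal protein genes 55 were lower, with a median of -0.07, and 25 of 31 proteasome subunits were lower, also with a median of -0.07. The p53 target list had 10 of 16 lower and a median of -0.11, with GADD45A at 34.5 and 26.3 (-0.38). Immediate early genes had 12 of 17 lower and a median of -0.13, with MYC at 73.4 and 51.7 (-0.50) and KLF2 in the other direction at 25.2 and 37.6 (0.56).

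**Figure D4:**
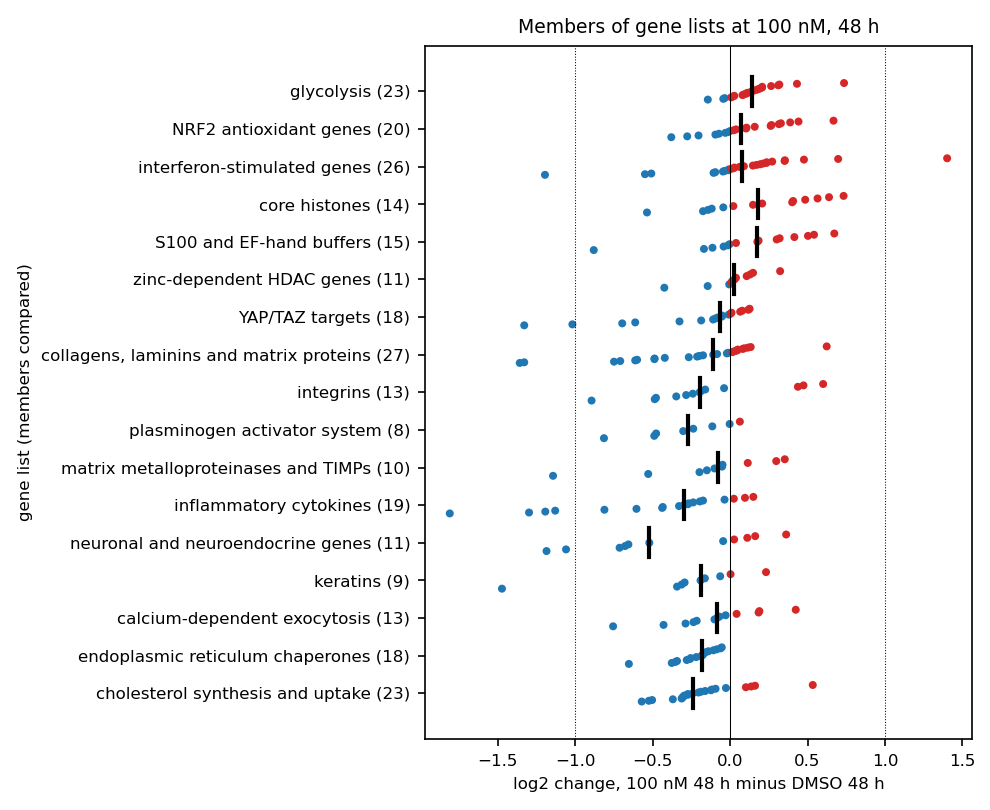
Log2 change at 48 h (100 nM minus DMSO, x axis) of each member compared in 17 gene lists (rows, with the number of members), 1 point per gene, blue below and red above 0, and a black bar at the list median. All 18 endoplasmic reticulum chaperones lie below 0, 20 of 23 glycolysis genes lie above it, and the inflammatory cytokines reach from IL24 at -1.81 to small values above 0.

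Of the genes that the study itself named, in calcium signalling, exocytosis, adhesion and matrix remodelling, 29 were compared here. Many were named from these libraries and others were picked as known markers, so the list is no independent evidence of a direction. At 48 h 11 were higher and 18 lower, with a median of -0.11, and PCDH1 and MMP1 were past 2-fold. CALB2, the calcium buffer calretinin, was at 7.34 in DMSO and 3.53 at 100 nM (-0.88), with 1.12, 7.52 and 11.3 at 24 h and 14.5 with 200 nM at 48 h. SCIN, a calcium-dependent actin-severing protein, was at 1.32 and 0.31 (-0.82), with 0.17, 1.29 and 3.77 at 24 h and 3.70 with 200 nM at 48 h. For SCIN the 100 nM 48 h library was nearest to DMSO 24 h, and for CALB2 it lay between DMSO 24 h and the other 4. SYTL2, a synaptotagmin-like protein of vesicle docking, was at 4.35 and 2.97 (-0.43), with 2.06, 5.07 and 5.93 at 24 h and 6.26 with 200 nM at 48 h. RGS2, which switches off Gq signalling, was at 6.75 and 5.08 (-0.35), with 4.70, 8.23 and 7.62 at 24 h and 11.2 with 200 nM at 48 h. The Gq gene GNAQ (13.4 and 13.7, 0.027) and the phospholipase C gene PLCB3 (32.2 and 36.7, 0.185) were not lower. S100A4 and its neighbour S100A3 (18.8 and 27.04, 0.50) were higher. Fibronectin (FN1) at 104 and 92.4 (-0.18), the mesenchymal transcription factor ZEB1 at 56.7 and 55.1 (-0.04) and TIMP1 at 146 and 140.5 (-0.05) differed little.

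The small changes went with the base composition of the transcripts. Over the 11301 genes with a known transcript (98.2% of those compared), divided into 5 groups of equal size by GC content, the median change was -0.10 in the group with the lowest and 0.07 in the group with the highest, and the share of genes higher at 100 nM was 25.4% and 65.0%. The list medians were therefore also read after subtracting the median change of all genes in the same 1 of 10 GC groups, a comparison added after seeing the data. They were -0.32 for inflammatory cytokines, -0.20 for cholesterol genes, -0.19 for endoplasmic reticulum chaperones, 0.12 for glycolysis, -0.27 for the plasminogen activator system and -0.12 for integrins. For neuronal genes the median went from -0.52 to -0.32, and for zinc-dependent HDAC genes, already near 0, it was -0.02. Whether the trend came from the libraries or from the cells was not tested, and the 2-fold genes ranged from CXCL8, with a GC content of 33.4%, to PCSK1N, with 74.5%.

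**Figure D5:**
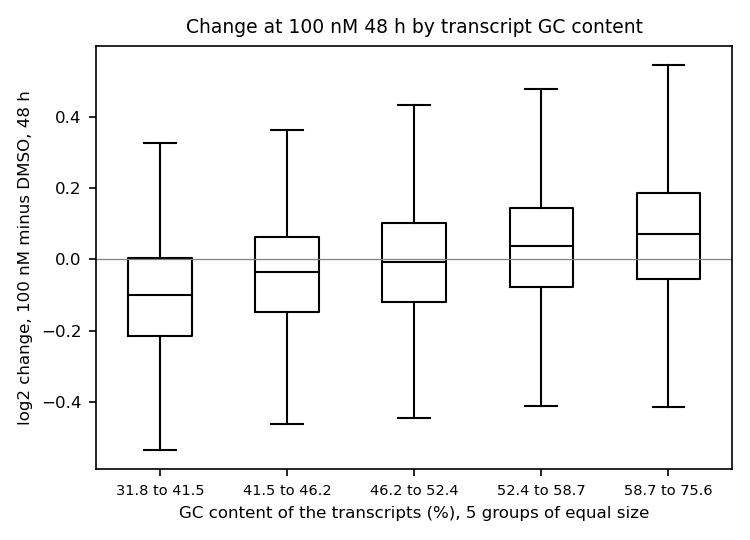
Log2 change at 48 h (100 nM minus DMSO, y axis) in 5 groups of genes of rising transcript GC content (x axis, percent). Boxes show the quartiles with the median, whiskers the most extreme genes within 1.5 times the quartile range, and genes beyond are not drawn. The medians go up from -0.10 to 0.07 from the lowest to the highest group.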

How the data were processed

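RNA-seq of 6 MDA-MB-231 libraries, 1 per condition, was analysed from the values deposited by the authors. The authors' files give FPKM per gene to 2 decimals, and the submitters' processing notes name Bowtie2, RSEM and hg19. The study's methods give mRNA enrichment or depletion of rRNA without saying which was used, and versions and filters are not given in the sources used here. The files hold no counts, so depth was read from the size of single-fragment steps in the low values of genes whose only transcript is 500 to 1500 bases long (lengths and GC content from GENCODE release 29), and no difference between libraries was tested for significance.

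Symbols were found by NCBI Gene ID for 16585 of 16623 genes. Genes that reached an FPKM of 1 in 1 of the libraries or both were compared on log2(FPKM + 1), and a difference of at least 2-fold counted as a call. The genes named were all 2-fold higher genes, the 25 largest 2-fold lower genes, the 15 largest differences in each direction at an FPKM of 10 or more on both sides, up to 4 genes of each of 51 lists with the largest change, and the genes the study named. A few of these are left out here. The remaining 2-fold lower genes, the partners of genes that share fragments, the genes at the 2-fold limit and some further list members were named after their values were seen. The genes and lists were chosen with earlier results of these data known. Promoters were matched by NCBI Gene ID to RefSeq (GRCh38.p14). Alternatives were pseudocounts of 0.1 and 0.01, other filters, a 1.5-fold threshold, 2 rescalings and DMSO 24 h as reference. The calling script was first run on simulated fragments with known changes, to check that it returned them. The scripts ran in Python 3.11.15 (pandas 2.3.3, numpy 2.4.6) and figures were drawn with matplotlib 3.10.9.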

Additional observations from a re-analysis of the deposited data

Results flagged for a closer look

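In 33 genes the 100 nM library was past 2-fold from DMSO in opposite directions at 24 h and 48 h. Each time had 1 library per side, and the difference between the times was not tested. Of the genes at least 2-fold lower at 48 h, 32 were at least 2-fold higher at 24 h, and their log2 changes at 24 h (100 nM minus DMSO) follow. Among adhesion, junction and surface receptor genes they were PCDH1 1.96, CLDN1 1.85, CNTN1 1.21, IGSF1 1.49, SLAMF7 1.02, F2RL2 2.03, DPP4 1.36 and ADGRB2 1.94. Among secreted factors and matrix genes they were IL24 2.005, CXCL8 1.38, AREG 1.97, IGFBP3 1.10, TNFRSF11B 1.15, TNC 1.76, CCN2 1.43, EFEMP1 1.16, PRSS3 2.11, SCG2 1.69, NELL2 1.22 and PCSK1N 1.82. Among intracellular, membrane and other genes they were KRTAP2-3 1.10, MAP3K7CL 1.31, VSNL1 1.32, ANKRD1 1.33, KRT15 1.53, FABP4 1.69, APLP1 1.79, AFAP1L2 1.84, FXYD1 1.85, CDA 2.02, LMCD1 2.06 and CRIP2 2.54. SIGIRR, higher at 48 h, had a 24 h change of -1.06. The 33 were picked by their values at both times, so each 24 h change listed is past 2-fold by construction. Only the 47 lower and 7 higher genes they come from were chosen by 48 h values alone. Of all 11475 genes compared at 24 h, 155 (1.35%) were at least 2-fold higher with 100 nM. No group had enough samples to look for an outlying library.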

How the results depend on the processing

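No paired analysis was possible because there was 1 library per condition, and no library could be left out for the same reason. With a pseudocount of 0.1 there were 121 genes lower and 32 higher, with 0.01 there were 141 and 33, and after rescaling to TPM, which multiplies every value and so shrinks the weight of the pseudocount, 75 and 13. When both libraries had to reach an FPKM of 1, 29 were lower and 2 higher, without genes that may share reads 40 and 2, and at 1.5-fold 203 and 58. Without the filter the counts were 47 and 7, and with median-of-ratios factors, which moved the median of all genes from -0.01 to 0.02, 42 and 7. The median of the neuronal list was -0.66 and -0.68 with the smaller pseudocounts, 0 with no filter, -0.045 with the stricter filter and -0.32 after the GC adjustment. The medians of 3 of 51 lists changed sign with median-of-ratios factors and of 7 after the GC adjustment, in addition to those that did so with DMSO 24 h as reference.

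With DMSO 24 h as reference, 29 genes were lower and 184 higher, and list medians were 0.57 for cholesterol synthesis and uptake, 0.45 for glycolysis, 0.043 for the plasminogen activator system, 0.71 for inflammatory cytokines and 0.55 for neuronal genes, with 24 of 51 lists changing sign. This alternative also sets 48 h against 24 h, so treatment and time cannot be told apart in it. Of the 47 genes at least 2-fold lower, 32 were above DMSO 24 h, where the median difference of all genes compared was -0.012. Among the 31 of them under the naming rule these were 21: PCDH1 0.091, IL24 1.14, CLDN1 0.053, CRIP2 0.72, CDA 0.23, KRT15 0.33, FXYD1 0.26, MAP3K7CL 0.80, TNC 0.47, KLRK1 0.18, CXCL8 1.07, PRSS3 0.74, FABP4 0.26, F2RL2 0.14, OAS1 0.16, IL1A 0.56, DPP4 0.21, SCG2 0.21, PTGS2 0.42, AREG 0.72 and MAP2 0.34. No gene past 2-fold under the naming rule changed sign under the pseudocounts or the rescalings. Depth limits the weakest genes, and what varies between cultures was not measured.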

Other observations

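Genes driven by the aryl hydrocarbon receptor, a ligand-activated transcription factor that controls enzymes handling foreign compounds, were mostly higher at 100 nM 48 h. The list was written after the values of some members had been seen, so it is a description. Of 10 genes compared 8 were higher and 2 lower, none by 2-fold, with a median of 0.26, where 47.2% of all genes were higher. ALDH3A1, an aldehyde dehydrogenase, was at 8.53 in DMSO and 17.4 at 100 nM (0.94), with 6, 3.72 and 3.24 with DMSO, 100 nM and 200 nM at 24 h and 5.48 with 200 nM at 48 h. The receptor's repressor AHRR was at 2.89 and 5.46 (0.73), NQO1 at 133 and 212 (0.67) and CYP1B1, a cytochrome P450, at 8.56 and 12.4 (0.49). ALDH3A1 and NQO1 were highest of the 6 libraries at 100 nM 48 h, while CYP1B1 was higher in all 24 h libraries, at 15.4 to 19.5.

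MHC class I genes were split. HLA-B was at 129 and 79.9 (-0.69) and HLA-C at 108 and 80.8 (-0.41), while TAPBP, which loads peptides onto class I molecules, was at 48.3 and 61.2 (0.33). Of 16 genes of class I presentation 8 were higher and 8 lower. HLA genes are similar to one another, and their values can share fragments.

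TAGLN, an actin-binding protein of contractile cells, was at 2.66 in DMSO and 5.47 at 100 nM (0.82). At 24 h it was at 13.3 with DMSO and 6.05 with 100 nM (-1.02), so it also stood on opposite sides of DMSO at the 2 times. The share of genes higher at 100 nM 48 h was 61.2% on chromosome 16, 61.8% on chromosome 17, 59.0% on chromosome 19 and 60.7% on chromosome 22, against 33.7% on chromosome 4. The part of GC content in this was not tested.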
